A study of Homo sapiens with 6 samples.

Results

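The structural matrix genes of SW1353 cells were followed before and after interleukin-1: 51 genes of collagens, proteoglycans, matrix glycoproteins and the enzymes that cross-link them. They were chosen by name, as every probe whose annotated symbol was on the list. Of the 51 genes, 50 had a probe, 81 of 48784 probes in all, and for PRG4, which encodes the joint lubricant lubricin, no probe carried the symbol in the annotation used here. SW1353 is a human chondrosarcoma line, a tumour of cartilage-forming cells that grows in culture and is often used in place of chondrocytes. In the IL-1 group, SW1353 cells received interleukin-1 alpha at 0.5 ng/ml for 6 h after about 20 h without serum, and the control group went through the same serum-free time without interleukin-1. Each group had 3 Illumina bead arrays. Sample titles of 2 kinds, Allstars and Sample, occur in both groups: replicates 1 and 2 of each group are Allstars and replicate 3 of each is Sample, and the labels do not say what separates the kinds. The labels do not say whether the arrays of a group came from separate cultures. The p-values below therefore describe the spread between these arrays, which may be technical, and their small number limits how precise a value can be.

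As background, cartilage owes its tensile strength to fibrils of type II, IX and XI collagen and its resistance to compression to aggrecan, a proteoglycan held on hyaluronan by link protein. Fibrous tissue is built on type I, III and V collagen with decorin, lumican and fibronectin, and cells that leave the chondrocyte state in culture are known to exchange the first matrix for the second. Interleukin-1 is known in joint cartilage for driving matrix breakdown and for lowering the synthesis of type II collagen and aggrecan.

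A probe was taken as well above background on an array where its detection p-value was under 0.01, and levels are given as log2 of the background-corrected, quantile-normalised signal. Between 11954 and 13357 probes passed on each array. The lowest such level lay between 5.86 and 6.28. Levels of different probes are not set against each other, since probes differ in brightness.

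In control cells, most genes listed as fibrous matrix were detected and most listed as cartilage matrix were not. Of the 50 genes, 33 had a probe well above background on all 3 control arrays, 1 on some of them and 16 on none. Of all 18848 genes with a named probe, 44.8% were detected on all 3 control arrays and 48.2% on none. Of 19 genes listed as fibrous connective tissue matrix, 16 were detected on all 3 control arrays. They were COL1A1, COL1A2, COL3A1, COL5A1, COL5A2, COL6A1, COL6A2, COL6A3, COL12A1, DCN, LUM, FN1, TNC, POSTN, THBS2 and LOX. The other 3 were VCAN, which encodes the large proteoglycan versican, FBN1, which encodes the microfibril protein fibrillin-1, and ELN, which encodes elastin. Of 9 cartilage matrix genes with a probe, 2 were detected, COL11A1 and HAPLN1. COL11A1 encodes a chain of the thin cartilage fibril and HAPLN1 encodes cartilage link protein. The other 7, COL2A1, COL9A2, COL9A3, COL10A1, ACAN, COMP and MATN3, were well above background on 0 of 6 arrays. The lists were chosen with earlier results of these data known, so the split depends in part on which genes each list holds.

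**Figure D1:**
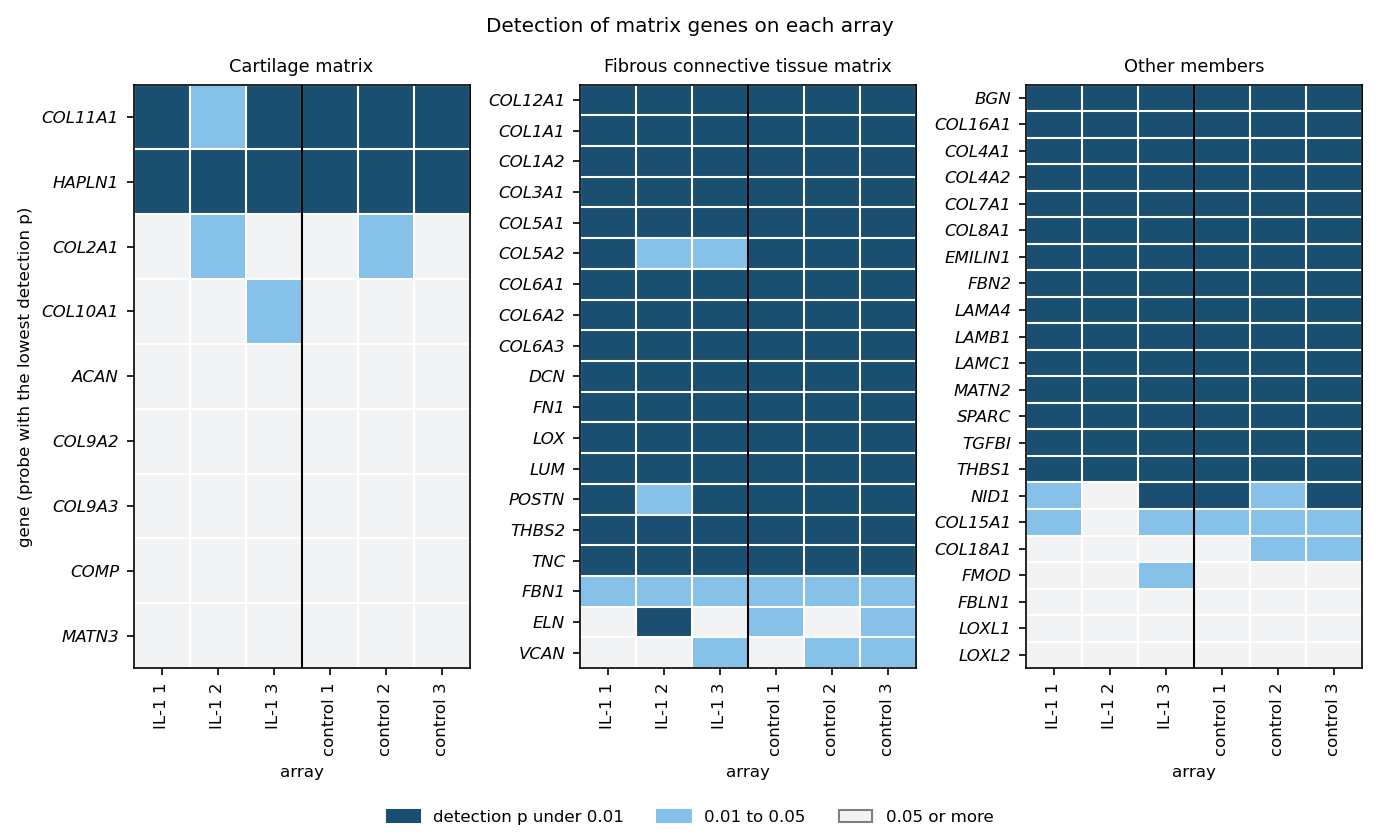
Detection of the 50 matrix genes with a probe on the 3 IL-1 (left) and 3 control (right) arrays of each panel, with the shade giving the detection p-value of the gene's best probe. The control columns are dark for 16 of 19 fibrous genes and for COL11A1 and HAPLN1 among the cartilage genes, and 7 cartilage genes have no dark cell.

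The brighter probe of COL2A1, which encodes type II collagen, read 4.92, 5.89 and 4.94 on the IL-1 arrays, against 5.10, 5.73 and 5.03 on the control arrays. The brighter probe of ACAN, which encodes aggrecan, read 4.61, 4.53 and 4.56 on the IL-1 arrays, against 4.64, 4.73 and 4.69 on the control arrays. None of these readings was well above background, so neither gene allows a statement on its response. COL2A1 came nearest on IL-1 replicate 2 and control replicate 2, with a detection p of 0.0184 on each. With a detection p under 0.05 as the limit, 36 genes were detected at rest, the added ones being NID1, FBN1 and the basement membrane collagen gene COL15A1.

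Absence of signal is a statement about a probe. Of 21 members with several probes, 7 had a probe on all 3 control arrays and another on none. They were COL11A1, COL6A2, COL8A1, DCN, FN1, LUM and POSTN. For DCN 1 of 4 probes was detected. By contrast COL1A2, COL6A3, LAMA4, LAMB1, MATN2 and TNC had every probe on all 3 control arrays.

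The label of the line was set against marker lists. Of 13 chondrocyte markers with a probe, SOX9, which encodes the chondrocyte lineage factor, and HAPLN1 were detected on all 3 control arrays, and the other 11 were on 0 of 6 arrays. Of 7 mesenchymal markers, 6 were detected and THY1 was not. Leukocyte markers gave 1 gene on all control arrays of 5 with a probe, the lysosomal protein gene CD68. The other 4 were on 0 control arrays, and 3 of these on 0 of 6 arrays. The marker left over was detected in the IL-1 group only. Endothelial markers gave VWF and TEK of 4, with PECAM1 and CDH5 on 0 arrays. Summed signals of the mesenchymal list ran from 41194 to 44985 on the IL-1 arrays and from 31997 to 35441 on the control arrays. Those of the endothelial list ran from 240 to 279 on the IL-1 arrays and from 298 to 335 on the control arrays. Those of the leukocyte list ran from 7198 to 12524 on the IL-1 arrays and from 6532 to 9837 on the control arrays. Sums of different lists are not set against each other, since probes differ in brightness. Each sum also takes in the genes of its list that were not detected, and the part of each gene in it is not given. Of 5 epithelial markers 4 were on 0 arrays and EPCAM was on some control arrays, with sums from 123 to 175 on the IL-1 arrays and from 137 to 198 on the control arrays. The summed chondrocyte list reached 914 to 1283 on the IL-1 arrays and 1359 to 1523 on the control arrays. SOX9, the first of the 2 detected chondrocyte markers, fell by 0.94 (limma adjusted p = 0.0186, and 7.13e-05 with the block for title series described below). It read 8.42, 8.36 and 8.91 on the IL-1 arrays, against 9.51, 9.63 and 9.36 on the control arrays, without overlap. Without the block the call for SOX9 was lost in the 4 fits that left out an Allstars array (limma adjusted p up to 0.0946). Of the 6 tested mesenchymal markers 1 rose, the hyaluronan receptor gene CD44, by 1.19 (limma adjusted p = 0.000338). With the block CD44 and NT5E (0.48) rose and PDGFRB fell by 0.65. Of these 6 markers 4 had a difference below 0, with a median of -0.06, while the summed signal was higher on the IL-1 arrays. With the block the leukocyte marker CD68 rose by 0.28 (limma adjusted p = 0.0106). In that fit the endothelial marker VWF fell by 0.62 (limma adjusted p = 0.0146). Neither passed without the block (limma adjusted p = 0.579 and 0.211). Each kept its call in 2 of the 4 fits with the block that left out an Allstars array. Over all genes 13.0% rose and 22.2% fell with the block. The part of these markers in the results below was not tested.

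The comparison of IL-1 with control cells asks which matrix transcripts differ after 6 h. Of the 50 genes 34 had a probe that passed the detection filter, a detection p under 0.01 on at least 3 of 6 arrays, and were tested among 9078 genes with limma. None of the 34 entered through 1 group alone. Of the 34, 1 rose, DCN, and 0 fell, at an adjusted p under 0.05 (limma, Benjamini-Hochberg over all genes). Over all genes tested 6.08% rose and 2.94% fell, 9.02% in all. At an unadjusted p under 0.05, 4 members were higher and 2 were lower. With title series as a block, which takes the difference between Allstars and Sample arrays out of the spread, 8 members rose and 5 fell. Over all genes, 13.0% rose and 22.2% fell in that fit, so the members' 13 calls of 34 stand beside 35.2% of all genes called. The shares of all genes in each fit stand beside the counts by family below as well. The block leaves the size of a difference as it was, because each title series holds as many IL-1 as control arrays.

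The 8 that rose with the block were COL7A1, DCN, LUM, LOX, TNC, COL8A1, THBS1 and COL6A1, and the 5 that fell were THBS2, LAMB1, COL1A2, MATN2 and SPARC. All 13 had the same sign within both title series, as did 25 of the 34 tested. For 8 of the 13 the 3 IL-1 arrays did not overlap the 3 control arrays. The 13 were picked by a fit to these same arrays, so neither count is separate support for their calls. Over the 34, the IL-1 arrays lay all above the control arrays for 6 and all below for 3, against 11.0% and 17.1% of all genes. The median difference of the 34 was 0.03 on the log2 scale, and of all genes tested -0.11. In RNA from whole cultures, a change in the number of cells making a transcript cannot be told apart from a change per cell.

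**Figure D2:**
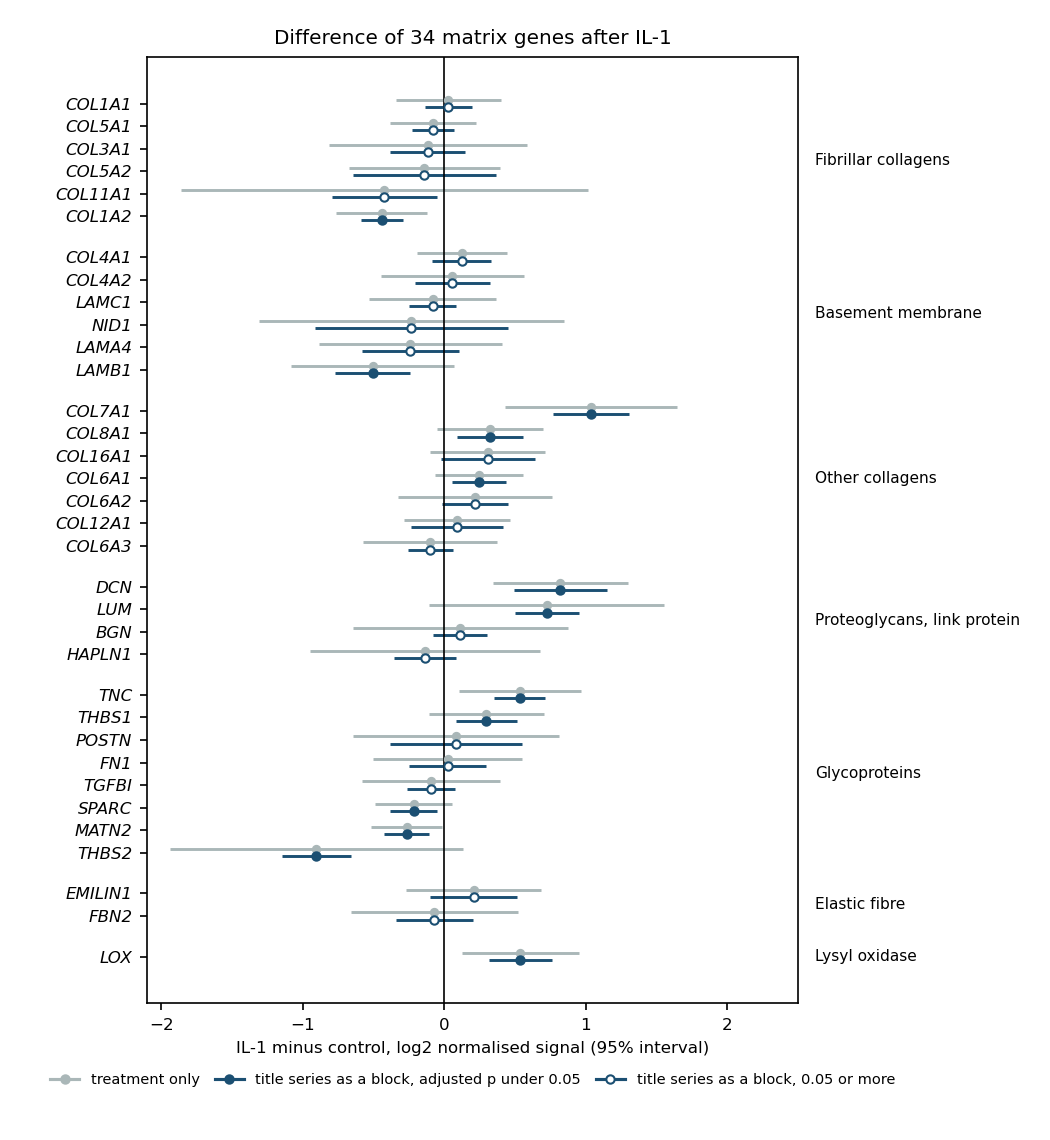
Difference of IL-1 minus control for the 34 tested matrix genes on the log2 scale, with 95% intervals from the fit of treatment only (grey) and with title series as a block (blue, filled where the adjusted p is under 0.05). COL7A1 lies farthest to the right, at 1.04, and THBS2 farthest to the left, at -0.90, and most genes lie within 0.5 of zero.

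Among fibrillar collagens, the ropes of connective tissue, 0 of 6 tested genes rose or fell in the fit of treatment only, with 1 lower at an unadjusted p under 0.05, and the fit with the block gave 1 that fell. That gene was COL1A2, which encodes the second chain of type I collagen. It read 12.67, 12.76 and 12.44 on the IL-1 arrays, against 13.23, 13.12 and 12.85 on the control arrays, so all IL-1 arrays were below all control arrays. The difference was -0.44 ± 0.14 (SE, n = 3 each), or 1.36-fold lower, with limma adjusted p = 0.103, and 0.000198 with the block. Its other kept probe differed by -0.25. Without control replicate 3 and without the block, COL1A2 passed with limma adjusted p = 0.0410, and in the other 5 fits that left out an array it did not pass (limma adjusted p = 0.160 to 0.332).

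COL1A1, which encodes the partner chain of type I collagen, read 11.75, 11.87 and 12.14 on the IL-1 arrays, against 11.68, 11.86 and 12.14 on the control arrays. The values of the groups overlapped almost fully. Its difference was 0.03, with a 95% interval of -0.13 to 0.19 with the block. The difference between the responses of COL1A1 and COL1A2 was not tested. COL5A1, whose chain nucleates type I fibrils, differed by -0.08 (95% interval -0.23 to 0.07 with the block) and COL3A1, which encodes type III collagen, by -0.12 (95% interval -0.38 to 0.15 with the block). COL5A2 was detected on 1 IL-1 array and on 3 control arrays and differed by -0.14.

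COL11A1 was the fibrillar gene that varied most between arrays. It read 6.41, 5.95 and 8.06 on the IL-1 arrays, against 6.79, 6.62 and 8.27 on the control arrays. Within each title series the IL-1 arrays were below the control arrays. The Sample arrays of both groups stood above all Allstars arrays. The difference was -0.42 ± 0.62 (SE, n = 3 each; limma adjusted p = 0.768), and limma adjusted p = 0.0726 with the block. Without IL-1 replicate 1 the fit with the block gave limma adjusted p = 0.0404 for COL11A1. The other 3 fits of that kind gave limma adjusted p = 0.227 without IL-1 replicate 2, where the difference was -0.26, 0.227 without control replicate 1 and 0.132 without control replicate 2.

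Basement membranes are thin sheets of type IV collagen and laminin joined by nidogen. Of 6 tested genes 0 rose or fell in the fit of treatment only, and 0 had an unadjusted p under 0.05. With the block 1 fell, LAMB1, which encodes the laminin beta-1 chain. LAMB1 read 8.04, 8.51 and 8.83 on the IL-1 arrays, against 8.90, 8.68 and 9.32 on the control arrays. Its groups overlapped, while within each title series the IL-1 arrays were lower. The difference was -0.50 ± 0.25 (SE, n = 3 each; limma adjusted p = 0.290), and limma adjusted p = 0.00596 with the block. Its other kept probe differed by -0.37. LAMC1, which encodes the gamma-1 chain that pairs with it in the laminin trimer, differed by -0.08 (95% interval -0.25 to 0.08 with the block). LAMA4 differed by -0.24, and NID1, which encodes nidogen-1, by -0.23, with a wide 95% interval of -0.91 to 0.45 with the block.

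COL4A1 and COL4A2, which encode the chains of the common type IV collagen, lie head to head on chromosome 13 and start in opposite directions. The stretch between their RefSeq starts, 126 bases at chr13:110307158-110307283 of GRCh38.p14, is shown because it lies directly upstream of both genes. It is printed on the plus strand, the strand of COL4A2, with the CCAAT motif in capitals.
COL4A1-COL4A2: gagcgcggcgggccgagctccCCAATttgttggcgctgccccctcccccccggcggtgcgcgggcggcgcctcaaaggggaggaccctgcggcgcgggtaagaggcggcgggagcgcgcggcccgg
COL4A1 read 11.12, 11.32 and 11.30 on the IL-1 arrays, against 11.04, 11.34 and 11.00 on the control arrays. COL4A2 read 8.15, 7.85 and 7.49 on the IL-1 arrays, against 7.88, 7.93 and 7.50 on the control arrays. Neither gene separated the groups. The differences were 0.12 (95% interval -0.08 to 0.33 with the block) for COL4A1 and 0.06 (95% interval -0.21 to 0.32 with the block) for COL4A2.

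Among the other collagens, 0 of 7 tested genes rose or fell in the fit of treatment only, with 1 higher at an unadjusted p under 0.05. With the block 3 rose and 0 fell, against 13.0% and 22.2% of all genes. COL7A1, which encodes the anchoring fibril collagen that ties epithelial basement membranes to the tissue below, had the largest difference of all 34 members. It read 10.10, 9.98 and 9.79 on the IL-1 arrays, against 9.27, 9.19 and 8.30 on the control arrays. All IL-1 arrays were above all control arrays. The difference was 1.04 ± 0.26 (SE, n = 3 each), or 2.05-fold, with limma adjusted p = 0.0508, and 1.55e-05 with the block. Without control replicate 3, COL7A1 passed without the block as well (limma adjusted p = 0.0268), and it also passed without the block when array medians were equalised, when background was not corrected or with the authors' values (limma adjusted p = 0.0475, 0.0455 and 0.0286). It did not pass without the block in the other 5 fits that left out an array (limma adjusted p = 0.0521 to 0.181), with the 3 other detection filters (0.0525 to 0.0678), with every kept probe tested (0.0526) or without a trend in the variance (0.0648).

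COL7A1 is the riser with the block that has the largest difference and a single RefSeq start, so the 250 bases before that start are shown. They lie on the minus strand at chr3:48595330-48595579 of GRCh38.p14. Capitals mark matches to the NF-kB consensus and, in the other orientation, to TATAAA.
COL7A1: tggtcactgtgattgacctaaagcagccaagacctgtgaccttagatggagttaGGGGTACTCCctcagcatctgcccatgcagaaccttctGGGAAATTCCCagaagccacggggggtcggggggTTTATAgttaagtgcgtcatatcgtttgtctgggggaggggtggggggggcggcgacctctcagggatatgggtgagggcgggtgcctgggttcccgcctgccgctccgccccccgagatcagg
The matches to the NF-kB consensus start 196 and 158 bases before the start, and the second overlaps a match on the other strand by all but 1 base. Searched on both strands in windows of 250 bases, this motif is held by 9.6% of the first-listed promoters of 27305 genes. It is held by 7 of the 37 members with a promoter entry. Of these COL7A1 was called with the block, NID1 and COL6A2 were tested and not called, and COL15A1, ACAN, COMP and FBLN1 were not tested. TATAAA is held by 11.1% and by 5 of the 37 members, and CCAAT by 33.0% and by 10 members. The AP-1 motif TGANTCA is held by 6.6%. A match of letters describes the window and shows no binding. TGANTCA was in the window of 1 member of 37, POSTN.

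COL8A1, which encodes a short-chain network collagen, read 9.26, 9.10 and 9.00 on the IL-1 arrays, against 8.67, 9.04 and 8.68 on the control arrays. The groups overlapped. It rose with the block by 0.32 (limma adjusted p = 0.0335), a call that was lost without IL-1 replicate 1 (limma adjusted p = 0.107), without control replicate 1 (limma adjusted p = 0.175) and with the authors' values (limma adjusted p = 0.0857). Its other kept probe differed by -0.01, so the 2 probes of COL8A1 disagree. COL6A1, which encodes a chain of the beaded filaments around cells, read 9.56, 9.77 and 9.77 on the IL-1 arrays, against 9.39, 9.41 and 9.55 on the control arrays. Its IL-1 arrays were all above its control arrays, by a small margin. COL6A1 rose with the block by 0.25 (limma adjusted p = 0.0437). The call was lost without IL-1 replicate 2 (limma adjusted p = 0.179), without control replicate 1 (limma adjusted p = 0.120), without control replicate 2 (limma adjusted p = 0.102) and with the authors' values (limma adjusted p = 0.103).

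Its partner chains gave no call in either fit. COL6A2 differed by 0.22 on each kept probe and COL6A3 by -0.10, with 0.09 on its other kept probe, which is a disagreement in sign between 2 probes with small differences. The fibril-associated collagen genes COL16A1 and COL12A1 differed by 0.31 (95% interval -0.02 to 0.64 with the block) and 0.09. All IL-1 arrays of COL16A1 were above its control arrays. COL9A2, COL9A3 and COL10A1, the last a marker of hypertrophic cartilage, were not detected.

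Of the proteoglycan genes, which encode core proteins that carry sulfated sugar chains, 4 with link protein were tested, 1 rose in the fit of treatment only and 2 rose with the block. DCN encodes decorin, which coats collagen fibrils and binds transforming growth factor beta. Its probe read 7.63, 7.80 and 7.20 on the IL-1 arrays, against 6.72, 6.83 and 6.62 on the control arrays. All IL-1 arrays were above all control arrays. The difference was 0.82 ± 0.21 (SE, n = 3 each), or 1.77-fold, with limma adjusted p = 0.0490, and 0.000860 with the block. This call rests on 1 probe. The other DCN probes were well above background on 0 arrays and differed by 0.33, -0.018 and -0.00014.

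Without the block the call for DCN sat at the edge of the threshold. The limma adjusted p was 0.185 without IL-1 replicate 1, 0.166 without IL-1 replicate 2, 0.162 without control replicate 1, 0.130 without control replicate 2 and 0.0944 without control replicate 3. It was 0.0525 when every kept probe was tested on its own, 0.0573 with a detection p under 0.05 as the filter and 0.156 with no detection filter, and it lay between 0.0530 and 0.0973 with the other scalings. Without the block DCN passed without IL-1 replicate 3 (limma adjusted p = 0.0155), without a trend in the variance (0.0402) and with detection required on all 6 arrays (0.0488). Its difference was 0.49 with the authors' values, 0.55 without background correction and 0.76 with equalised medians, against 0.82 here. With the block it stayed between 0.00233 and 0.00623 with each Allstars array left out.

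LUM encodes lumican, another small leucine-rich proteoglycan of collagen fibrils. It read 9.11, 9.18 and 9.88 on the IL-1 arrays, against 8.28, 8.26 and 9.45 on the control arrays. The groups overlapped because the Sample control array was above both Allstars IL-1 arrays. The difference was 0.72 ± 0.36 (SE, n = 3 each; limma adjusted p = 0.294), and LUM rose with the block (limma adjusted p = 0.000108). Without control replicate 3 LUM passed without the block as well (limma adjusted p = 0.0313), and in the other 5 fits that left out an array it did not (limma adjusted p = 0.374 to 0.613).

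BGN, which encodes biglycan, read 9.42, 9.44 and 10.33 on the IL-1 arrays, against 9.44, 9.21 and 10.20 on the control arrays. It differed by 0.11 (95% interval -0.08 to 0.31 with the block). HAPLN1 read 8.13, 7.97 and 8.96 on the IL-1 arrays, against 8.12, 8.20 and 9.14 on the control arrays. It differed by -0.13 (95% interval -0.35 to 0.08 with the block). For both genes the Sample arrays were higher than the Allstars arrays by more than IL-1 moved either. VCAN, ACAN and FMOD, which encodes fibromodulin, were not detected.

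Adhesive and matricellular glycoproteins link cells to the fibres or tune that contact. Of 8 tested genes 0 rose or fell in the fit of treatment only, with 1 higher and 1 lower at an unadjusted p under 0.05. With the block 2 rose and 3 fell, against 13.0% and 22.2% of all genes. TNC encodes tenascin-C, a protein of wounds and inflamed joints. It read 10.62, 10.81 and 10.38 on the IL-1 arrays, against 10.19, 10.27 and 9.75 on the control arrays. All IL-1 arrays were above all control arrays. The difference was 0.53 ± 0.19 (SE, n = 3 each; limma adjusted p = 0.137), or 1.45-fold, and limma adjusted p = 0.000234 with the block. Its other kept probe differed by 0.52.

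THBS2 encodes thrombospondin-2, a matricellular inhibitor of vessel growth. It read 7.49, 7.35 and 8.74 on the IL-1 arrays, against 8.24, 8.52 and 9.53 on the control arrays. The groups overlapped only because the Sample arrays stood higher in both. The difference was -0.90 ± 0.45 (SE, n = 3 each; limma adjusted p = 0.293), or 1.87-fold lower, and limma adjusted p = 2.63e-05 with the block. THBS2 had the most negative difference of the 34. The 250 bases before its RefSeq start, on the minus strand at chr6:169253847-169254096 of GRCh38.p14, are shown beside those of COL7A1 for that reason, with TATAAA in capitals.
THBS2: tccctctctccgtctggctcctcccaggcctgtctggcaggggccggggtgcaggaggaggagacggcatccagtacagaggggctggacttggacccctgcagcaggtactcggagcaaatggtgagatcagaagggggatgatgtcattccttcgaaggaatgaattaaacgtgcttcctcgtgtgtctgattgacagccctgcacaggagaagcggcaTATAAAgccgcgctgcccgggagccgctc
The TATAAA starts 29 bases before the start of THBS2. The letters of the NF-kB consensus, of CCAAT and of TGANTCA are not in this window.

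THBS1, which encodes thrombospondin-1, a relative of THBS2 that activates latent transforming growth factor beta, read 10.62, 10.42 and 11.05 on the IL-1 arrays, against 10.34, 10.39 and 10.46 on the control arrays. The groups overlapped between IL-1 replicate 2 and the Sample control array. THBS1 rose with the block by 0.30 (limma adjusted p = 0.0307). The call was lost without IL-1 replicate 1 (limma adjusted p = 0.0638) and without control replicate 1 (limma adjusted p = 0.0563).

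MATN2 encodes matrilin-2, an adaptor of the filament network. It read 10.71, 10.71 and 10.70 on the IL-1 arrays, against 10.94, 10.95 and 11.01 on the control arrays. The groups did not overlap and each was tight. MATN2 fell with the block by 0.26 (limma adjusted p = 0.0128), while its dimmer kept probe differed by -0.30 and was not called. The call was lost when array medians were equalised in place of the quantile step (limma adjusted p = 0.127). SPARC, which encodes osteonectin, a collagen-binding matricellular protein, read 11.98, 12.14 and 12.08 on the IL-1 arrays, against 12.21, 12.19 and 12.44 on the control arrays. SPARC fell with the block by 0.22 (limma adjusted p = 0.0431). That call was lost without IL-1 replicate 1 (limma adjusted p = 0.126), without control replicate 1 (limma adjusted p = 0.0824), without control replicate 2 (limma adjusted p = 0.0751), with equalised medians (limma adjusted p = 0.384) and with the authors' values (limma adjusted p = 0.0655).

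FN1, which encodes fibronectin, gave no call. It read 7.80, 7.95 and 7.29 on the IL-1 arrays, against 7.68, 7.89 and 7.39 on the control arrays. The difference was 0.03, with a 95% interval of -0.25 to 0.30 with the block, and 0.29 on its other kept probe. TGFBI, an adhesion protein gene named for its induction by transforming growth factor beta, differed by -0.09 (95% interval -0.26 to 0.08 with the block). POSTN, which encodes periostin, was detected on 2 IL-1 and 3 control arrays and differed by 0.08. COMP and MATN3 were not detected.

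**Figure D3:**
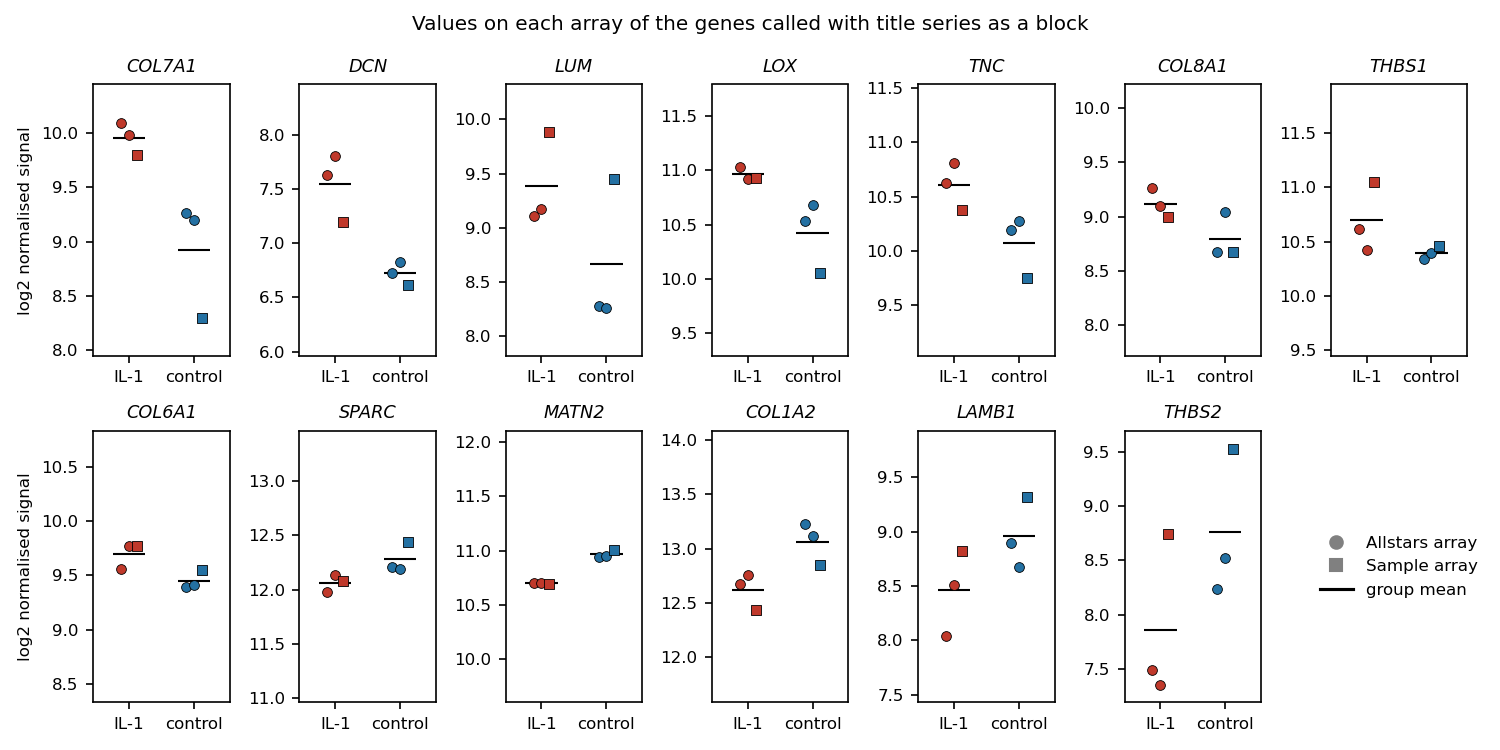
Log2 normalised signals of the 13 genes called with title series as a block, with IL-1 left of control in each panel, circles for Allstars arrays, squares for Sample arrays and a line at each group mean. Every panel spans the same range of the log2 scale. In LUM, THBS2 and LAMB1 the squares stand above the circles in both groups, and in COL7A1, DCN and TNC they stand below.

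Of the elastic fibre genes 2 were tested, and 0 rose or fell in either fit or at an unadjusted p under 0.05. EMILIN1 differed by 0.21 and FBN2, which encodes fibrillin-2, by -0.07. FBN2 read 8.43, 8.52 and 8.22 on the IL-1 arrays, against 8.80, 8.70 and 7.88 on the control arrays. It was lower with IL-1 on the Allstars arrays and higher on the Sample arrays, by -0.28 and 0.34. ELN was well above background on 1 IL-1 array and FBN1 and FBLN1 on 0 arrays.

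LOX, the lysyl oxidase that cross-links collagen and elastin, was the tested gene of its family, with LOXL1 and LOXL2 on 0 arrays. It read 11.03, 10.92 and 10.93 on the IL-1 arrays, against 10.54, 10.69 and 10.05 on the control arrays. All IL-1 arrays were above all control arrays. The difference was 0.54 ± 0.18 (SE, n = 3 each; limma adjusted p = 0.119), or 1.45-fold, and limma adjusted p = 0.00108 with the block. RefSeq lists 3 starts for LOX, so no promoter is shown.

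Many matrix genes also differed between the 2 title series. This comparison was chosen after the values were seen. With treatment in the fit, 14 of the 34 genes were higher and 11 were lower on the Sample arrays than on the Allstars arrays (limma adjusted p under 0.05), while 23.1% of all genes were higher and 24.3% lower. COL11A1 stood higher by 1.72, THBS2 by 1.23, LUM by 0.96, NID1 and HAPLN1 by 0.95 and BGN by 0.88. COL7A1 stood lower, by -0.59, FBN2 by -0.56 and COL6A3 by -0.53. Both title series were run on arrays with different signal scales, with median signals between 60.3 and 67.2 on the Allstars arrays and 91.5 and 95.3 on the Sample arrays, so a difference of the cells and one of the arrays cannot be told apart.

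**Figure D4:**
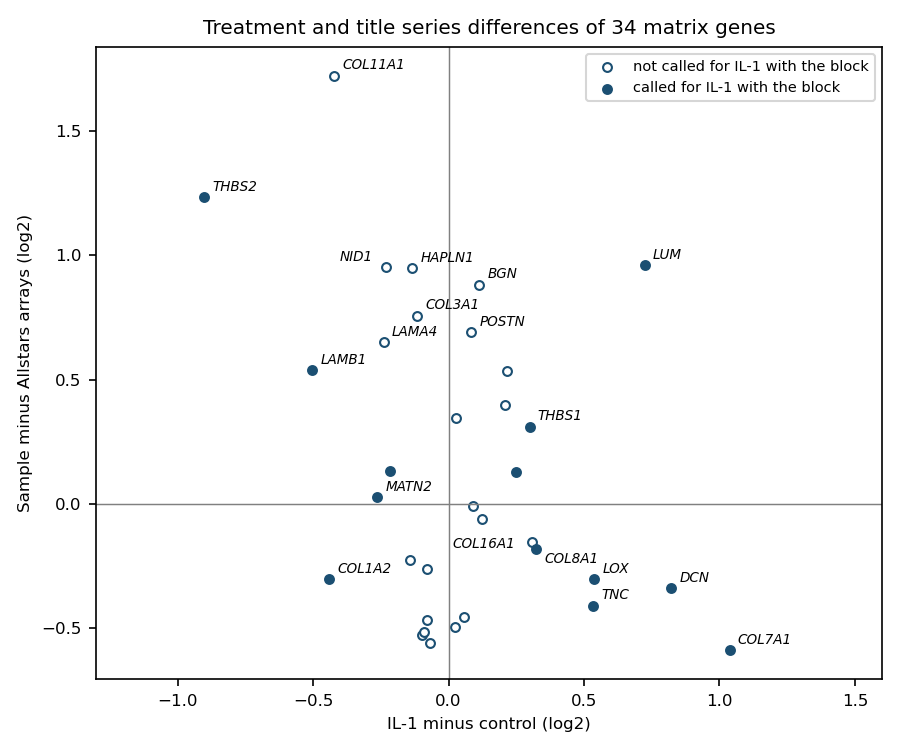
Difference between Sample and Allstars arrays against the difference of IL-1 minus control, both on the log2 scale, for the 34 tested matrix genes, with filled points for genes called for IL-1 with title series as a block. COL11A1 (1.72) and THBS2 (1.23) lie highest, and the points reach from -0.59 to 1.72 on the vertical axis and from -0.90 to 1.04 on the horizontal one.

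The response to IL-1 itself was set between the title series as an interaction. Of the 34 genes 0 passed (limma adjusted p under 0.05), as did 0 of all genes, a called share of 0%. The Sample series holds 1 array per group, so the spread came from the 4 Allstars arrays, and a p that misses the threshold does not show that the responses were alike. At an unadjusted p under 0.05 there were 5 of the 34 and 552 of all genes. For COL7A1 the difference was 0.81 within the Allstars arrays and 1.50 between the 2 Sample arrays (limma adjusted p = 0.425 for the interaction). For LOX it was 0.37 and 0.88 (limma adjusted p = 0.630).

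Genes that build and process the same matrix were counted from lists that are not members. Of 22 tested genes of collagen folding, modification and processing, 1 rose and 0 fell, against the 6.08% and 2.94% of all genes. With the block 3 rose and 6 fell, against 13.0% and 22.2% of all genes. These shares of all genes stand beside the counts of the lists that follow as well. The riser without the block was PLOD2, the lysyl hydroxylase that sets up stable collagen cross-links. It read 13.07, 13.24 and 12.88 on the IL-1 arrays, against 12.19, 12.27 and 12.28 on the control arrays. Its groups lay well apart. The difference was 0.82 ± 0.12 (SE, n = 3 each; limma adjusted p = 0.00429), and it passed whichever of the 6 arrays was left out. Of 19 tested genes of chondroitin sulfate synthesis, 1 rose, 1 fell, and 5 rose and 1 fell with the block. DSE, the epimerase that turns chondroitin into dermatan sulfate, the chain carried by decorin, rose by 1.18 (limma adjusted p = 0.00157). XYLT2, a xylosyltransferase that starts the chain, fell by 0.57 (limma adjusted p = 0.0433), a call lost whichever of the 6 arrays was left out (limma adjusted p between 0.0674 and 0.175) and held with the block (limma adjusted p = 0.000247).

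Of 6 tested laminin chains and basement membrane genes outside the members, 1 rose, AGRN, and 2 rose with the block. AGRN, which encodes the heparan sulfate proteoglycan agrin, rose by 0.84 (limma adjusted p = 0.0168), and lost the call without IL-1 replicate 1 (limma adjusted p = 0.0548), IL-1 replicate 2 (limma adjusted p = 0.0833) or control replicate 2 (limma adjusted p = 0.0662). Of 23 further collagen genes, 21 had a probe, 18 were on 0 control arrays and 3 were tested, of which 0 passed without the block, also at an unadjusted p under 0.05, and 1 with it. That was COL13A1, a membrane collagen gene, which fell with the block by 0.37 (limma adjusted p = 0.00766).

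Among 17 tested genes of other leucine-rich proteoglycans, matrilins, fibulins and matricellular proteins, 2 rose and 1 fell, and with the block 3 rose and 2 fell. TNFAIP6, which encodes a hyaluronan-binding protein, had 0 control arrays above background. It passed the detection filter through the 3 IL-1 arrays alone, so its call among the risers in both fits is no separate test. It was at least 53.7-fold higher, a bound on the background-corrected scale, against the lowest signals well above background. The fitted log2 difference of TNFAIP6 was 6.69 on that scale, but 5.12 without background correction and 4.81 with the authors' values, both below the bound's own size, so the bound holds for that scale only. CCN4, a matricellular target of Wnt signalling, rose by 1.71 (limma adjusted p = 0.00134). CTHRC1, a secreted protein gene of collagen-depositing cells, fell by 0.80 (limma adjusted p = 0.0140) and lost the call without IL-1 replicate 1 (limma adjusted p = 0.0763), IL-1 replicate 2 (limma adjusted p = 0.0701), control replicate 1 (limma adjusted p = 0.0797) or control replicate 2 (limma adjusted p = 0.0771). CCN4 and CTHRC1 passed with the block as well.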

How the data were processed

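RNA of each sample was run on 1 Illumina bead array. The deposited table has, per the file headers, 1 intensity column and 1 detection p-value column per array over 48784 probes, and states neither background correction nor normalization. A second deposited table, the authors' series matrix, is on the log2 scale. The submitters' processing notes name lumi, and its settings are not given in the sources used here. Those log2 values correlated with log2 of the intensity at 0.983 to 1.00 per array, and their medians were 5.86 to 5.87 on Allstars and 6.49 to 6.50 on Sample arrays. Whether the 2 kinds were normalized apart is unknown.

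Intensities were corrected and quantile normalised with neqc of limma 3.58.1 (R 4.3.3, offset 16). The filter was a detection p under 0.01 in at least 3 of 6 arrays, and the brightest kept probe stood for its gene, named from GEO's platform annotation (28085 probes with 1 gene, 13 with several, 20686 not listed). RefSeq held the gene ID of 28046 named probes and changed 0 symbols. limma (lmFit, eBayes with trend, two-sided, Benjamini-Hochberg over 9078 genes, adjusted p under 0.05) was run with treatment only and, as an alternative, with title series as a block. Other alternatives were the replicate block, Allstars arrays alone, each array left out, equalised medians, no background correction, the authors' values, other detection filters, every kept probe and no trend. Intervals are 95%. Fits were checked on simulated data, in which 8878 of 9078 genes had no added difference. In the real data 35.2% of genes were called with the block, so the shares that follow need not hold there. Added differences of 0.5 on the log2 scale were called for 0% of 50 genes without the block and 30% with it. Those of 1 were called for 32% and 84% of 75 genes. A small difference without a call therefore does not show that a gene was unchanged. A gene on 0 arrays of 1 group gets a lower bound, against the lowest signal well above background per array. All members were named, whatever their values; of each other list, the up to 3 called genes with the largest difference. The members and lists were chosen with earlier results of these data known. Promoters came from RefSeq (GRCh38.p14). 37 of 51 members had an entry.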

Additional observations from a re-analysis of the deposited data

How the results depend on the processing

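The counts of calls depended most on whether title series was a block. With title series as a block 1181 genes were higher and 2015 lower in IL-1 cells, against 552 and 267 without it, and 8 members were higher and 5 lower, against 1 and 0. Under the block with equalised medians the counts were 1311, 1659, 8 and 3, with the authors' log2 values and the block 1109, 2128, 6 and 4, and without background correction under the block, a setting chosen after seeing the data, 1191, 2044, 8 and 5. The Allstars arrays alone gave 1048, 1534, 5 and 3. With the block and 1 Allstars array left out, genes higher and lower and members higher and lower numbered 1071, 1739, 6 and 5 without IL-1 replicate 1, 1078, 1713, 7 and 5 without IL-1 replicate 2, 1009, 1399, 5 and 4 without control replicate 1, and 1024, 1333, 7 and 4 without control replicate 2. Without the block, leaving out each array gave 350 to 612 genes higher and 67 to 353 lower, and 0 to 2 members higher and 0 to 1 lower; the lowest counts came without an Allstars array. The authors' values without a block gave 170 genes lower, and so did all named probes without a detection filter. The count of members higher was 0 with a detection p under 0.05, with no detection filter and with every kept probe tested. Of the 13 members called with the block, 8 kept the call in all 4 fits that left out an Allstars array and under equalised medians, the authors' values and no background correction: COL1A2, COL7A1, DCN, LAMB1, LOX, LUM, THBS2 and TNC. None of the 13 changed sign under 24 settings, while 14 members that were not called did. Those settings reuse the arrays that picked the 13, so this is no separate support. The detected count at rest was 33 to 36, and 0 members passed the interaction with equalised medians or the authors' values, while over all genes 12 and 45 passed there, against 0 in the analysis reported. The cause was not tested.

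Allstars arrays 1 and 2 of both groups share label numbers and replicate 3 is a name given in accession order, so the labels do not tell whether the numbers pair the samples. As a replicate block they gave 1214 genes higher and 2109 lower, and 8 members higher and 5 lower. Deviations of same-numbered arrays from their group means correlated at 0.530, 0.551 and 0.818 over genes, and each array correlated best with its own number. Allstars arrays of unlike number correlated nearly as well, at 0.4873 and 0.4785. These deviations still hold the difference between Sample and Allstars arrays. Within the Allstars arrays, replicate 1 minus replicate 2 of the IL-1 group correlated with that of the control group at 0.0822.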
